A study of Mus musculus with 9 samples.

Results

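The genes described here are 10 chemokine and inflammatory cytokine genes that myeloid cells make: Ccl3, Ccl4, Ccl6, Ccl9, Cxcl2, Il1b, Il6, Il4, Tnf and Tgfb1. They were chosen by name, and all 10 were found among the 37980 genes of the deposited table. The study expressed the NUP98-HOXA10hd fusion gene, called NA, in multipotent progenitors (MPPs) and followed the blood formed from them after transplantation. RNA was sequenced from myeloid progenitors (MPs), the bone marrow cells that lack lineage markers and Sca1 and carry c-kit. Each sample held 100000 sorted cells, with 4 samples of NA MPs and 5 of WT MPs. The comparison asks how the myeloid progenitors formed from fusion-carrying MPPs differ in RNA from those of mice given WT MPPs.

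All 9 samples came from mice of strain C57BL/6 that had been irradiated and given MPPs with helper bone marrow cells, and the labels place the sort at 3 months after transplantation. The paper's methods name a different month. NA MPs carried the fusion from an inducible allele at the Rosa26 locus that Vav-Cre, which acts in all blood cells, had opened, and they were sorted as Tdtomato+ cells. The mice given WT MPPs yielded the WT MPs, sorted by CD45.2, and since the paper elsewhere describes recipients as CD45.2+ and WT donor cells as CD45.1+, which of the donor, the helper cells or the recipient they came from cannot be told. The labels give no age. Whether a sample came from 1 mouse is not stated, so the tests measure the spread between these samples and no other.

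Chemokines are small secreted proteins that draw white blood cells along a gradient by binding receptors that pass through the membrane. Tumour necrosis factor and the interleukins act on cells that carry their receptors, largely through NF-kB or STAT factors, while transforming growth factor beta acts through Smad factors and holds blood stem and progenitor cells back from division. Many of these genes are kept low and rise within minutes to hours of a stimulus, and AU-rich elements in the tails of their messages speed the decay of the RNA.

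The values are RSEM expected counts that had been divided by a factor for each sample, so a value of 1 read lay between 0.827 and 1.20 in the 9 samples. Before that scaling the libraries held 5557718, 6600728, 6048381 and 8106140 assigned reads in NA MP replicates 1 to 4. In WT MP replicates 1 to 5 they held 6141705, 7751482, 6509423, 6636195 and 7086158. After it, the totals lay between 6602851 and 6734284 in every sample. A value of 0 allows up to 3 reads, which is between 2.48 and 3.60 on this scale and covers counting error only.

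The sort could be checked against its own markers. Kit, the c-kit receptor that the gate selects for, had values of 3132, 2811, 2929 and 2984 in NA MPs and of 3100.4, 2983, 3048, 3039 and 3023 in WT MPs. Ly6a, which encodes Sca1, lay between 12.2 and 23.1 in all 9 samples. Mpo, the myeloperoxidase gene of granulocyte and monocyte progenitors, was the most abundant gene of the gate list, with values from 101201 to 112142. Here and below, the most abundant gene of a list is the one with the highest mean value over all 9 samples, not divided by exon length.

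Ccl3 and Ccl4 encode related chemokines, and Ccl3 binds the receptor Ccr1. They lie with Ccl9 and Ccl6 within 91.8 kb of chromosome 11 (chr11:83572919-83664683, GRCm38), in the order Ccl9, Ccl6, Ccl3, Ccl4. Ccl3 (ENSMUSG00000000982, chr11:83647844-83649355) had values of 102, 64.7, 180.4 and 147 in NA MP replicates 1 to 4 and of 8.63, 20.5, 30.6, 34.0 and 25.2 in WT MP replicates 1 to 5. Replicate 3 was the highest NA MP sample and replicate 2 the lowest, and even that one was above all WT MP samples. NA MPs averaged 124 ± 50.7 (SD, n = 4) and WT MPs 23.8 ± 9.91 (SD, n = 5). The log2 fold change was 2.36 (standard error, SE, 0.46, limma adjusted p = 0.00584), higher in 4 of 4 NA MP samples. This change is the difference of mean log2 values, NA MPs minus WT MPs, after 1 was added, and a gene counted as past the threshold when its p, adjusted over all genes tested, was under 0.05. In bulk RNA, fewer cells of a type and less RNA per cell cannot be told apart, for this gene and for those that follow.

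Ccl4 (ENSMUSG00000018930, chr11:83662584-83664683) had values of 60.0, 31.3, 111 and 117 in NA MPs and of 4.32, 5.99, 9.17, 20 and 12.1 in WT MPs. Replicates 3 and 4 were the high NA MP samples, replicate 2 was again the lowest, and the groups did not overlap. With 80.0 ± 41.4 (SD, n = 4) against 10.3 ± 6.19 (SD, n = 5), the log2 fold change was 2.83 (SE 0.54, limma adjusted p = 0.00479), the largest of the 6 genes tested. Ccl4 passed the filter on low values through the NA MP samples, since only 2 WT MP samples reached 10.

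Cxcl2 (ENSMUSG00000058427, chr5:90903871-90905938) encodes a chemokine that calls neutrophils through the receptor Cxcr2. Its values were 8.40, 8.09, 45.6 and 30.6 in NA MPs and 0, 0.856, 1.02, 6.00 and 7.45 in WT MPs. NA MP replicate 3 was highest, as for Ccl3, in both genes with a lead over replicate 4 not clearly beyond counting error. Replicates 1 and 2 were level within that error. The lowest NA MP sample was above the highest WT MP sample by a gap that also lay within counting error. These values rest on 93 reads in all NA MP samples together and 16 in all WT MP samples. The gene did not pass the filter for the test over all genes. An exact two-sided permutation test over all ways to choose 4 of the 9 samples gave p = 0.0159, the smallest that this design allows.

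Tnf (ENSMUSG00000024401, chr17:35199381-35202007) encodes tumour necrosis factor, which starts inflammation and activates NF-kB. Its values were 54.0, 45.5, 77.9 and 104 in NA MPs and 19.4, 18.8, 19.4, 35.0 and 30.7 in WT MPs. NA MP replicates 3 and 4 were again above replicates 1 and 2, WT MP replicates 4 and 5 were above the other WT MP samples, and the groups did not overlap. The mean was 70.4 ± 26.4 (SD, n = 4) against 24.7 ± 7.65 (SD, n = 5), and the log2 fold change was 1.45 (SE 0.24, limma adjusted p = 0.000119).

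Ccl9 (ENSMUSG00000019122, chr11:83572919-83578636) encodes a chemokine of the mouse that acts through Ccr1. It was far more abundant, with values of 1652, 1528, 1529 and 1501 in NA MPs and of 949, 1022, 1057, 1049.6 and 1005 in WT MPs. The samples of each group lay close together, and the lowest NA MP sample was well above the highest WT MP sample. At 1552 ± 67.6 (SD, n = 4) against 1017 ± 43.2 (SD, n = 5), the log2 fold change was 0.61 (SE 0.04, limma adjusted p = 1.33e-17).

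Ccl6 (ENSMUSG00000018927, chr11:83587882-83593087), the neighbour of Ccl9 and like it a ligand of Ccr1, had values of 39.6, 44.5, 44.5 and 39.7 in NA MPs and of 34.5, 31.7, 39.7, 33.0 and 25.2 in WT MPs. The groups overlapped, as WT MP replicate 3 was level with the lower NA MP samples. The log2 fold change of 0.36 (SE 0.16, 95% interval from 0.04 to 0.68) did not pass the threshold after adjustment over all genes (limma adjusted p = 0.0769). Without WT MP replicate 3 it was 0.43 with an adjusted p of 0.0467 from limma, and over all alternatives run the adjusted p lay between 0.0467 and 0.242.

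Tgfb1 (ENSMUSG00000002603, chr7:25687002-25705077) encodes transforming growth factor beta 1, which is stored in a latent form until it is released. It had values of 2598, 2703, 2517 and 2459 in NA MPs and of 2162, 1988, 2082, 2040.2 and 2071 in WT MPs. No NA MP sample reached down to a WT MP sample, although the distance between the groups was small. The means were 2569 ± 106 (SD, n = 4) and 2068 ± 63.6 (SD, n = 5), and the log2 fold change was 0.31 (SE 0.03, limma adjusted p = 5.39e-11).

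The 3 interleukins were near the limit of detection in both groups. Il1b (ENSMUSG00000027398, chr2:129364570-129371139), which encodes the fever-causing interleukin-1 beta, had values of 3.60, 4.04, 7.79 and 6.61 in NA MPs and of 6.47, 1.71, 5.09, 1.0 and 3.73 in WT MPs. The groups overlapped (exact two-sided permutation test, p = 0.222), and an antisense gene, Il1bos, shares 25 bases with its exons. Il6 (ENSMUSG00000025746, chr5:30013114-30019981), whose product drives the acute phase response, had values of 1.20, 1.01, 5.57 and 3.31 in NA MPs and of 5.40, 4.28, 5.09, 2.0 and 0.932 in WT MPs. High and low samples occurred in both groups (exact two-sided permutation test, p = 0.571).

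Il4 (ENSMUSG00000000869, chr11:53602982-53618669), a cytokine of T helper cells, basophils and mast cells, had values of 1.20, 0, 1.11 and 0.827 in NA MPs and of 2.16, 1.71, 1.02, 3.00 and 0.932 in WT MPs. These are 3 reads in all NA MP samples and 9 in all WT MP samples, and the groups overlapped (exact two-sided permutation test, p = 0.111). No difference in these 3 genes was detected at this depth.

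**Figure D1:**
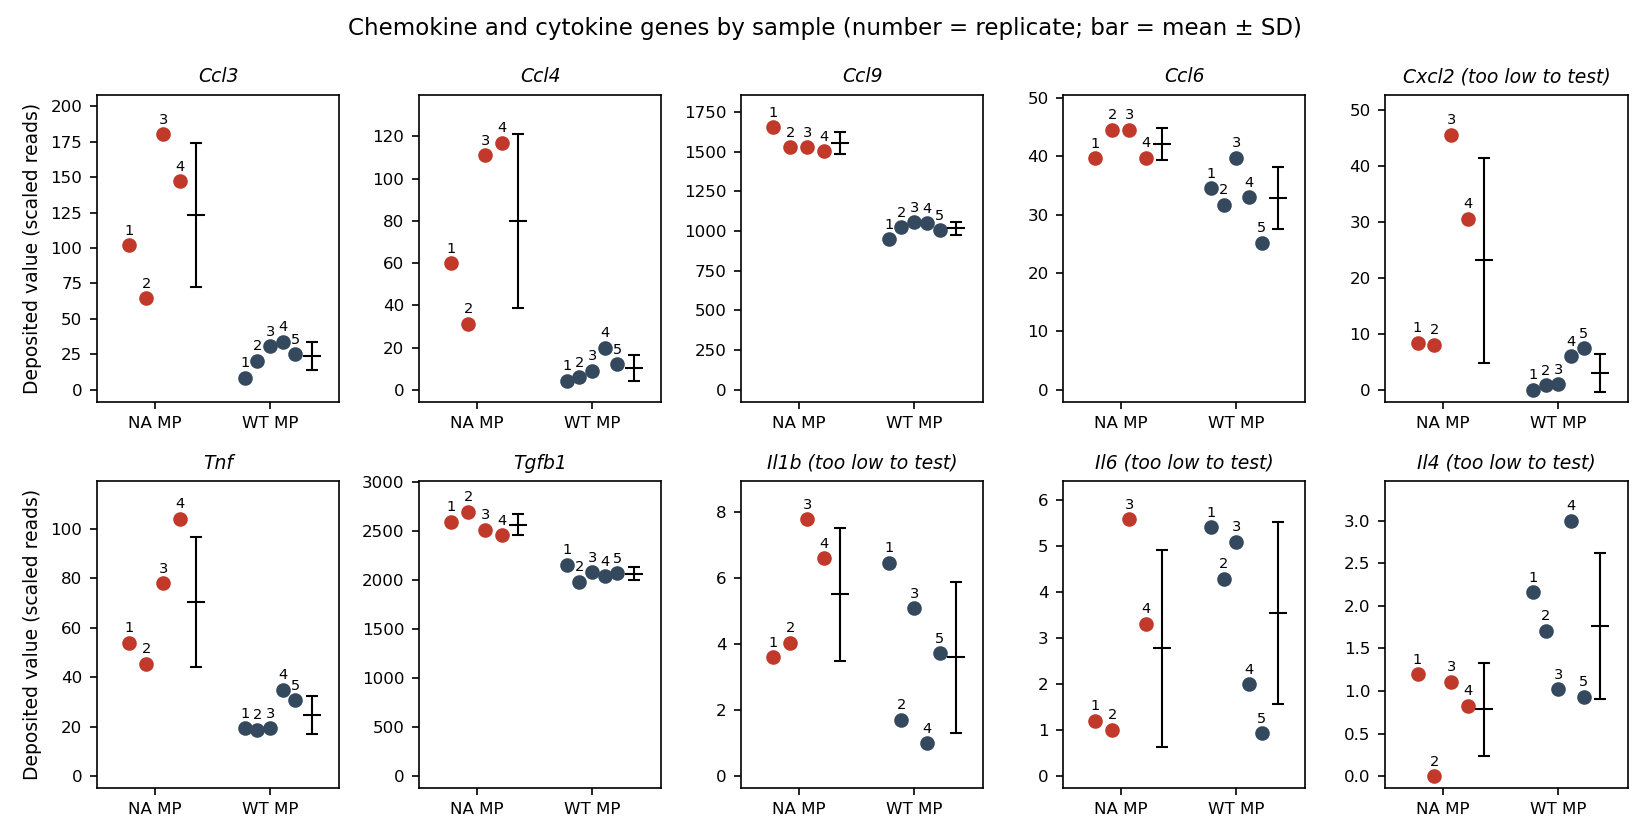
Deposited value (expected reads after scaling, linear axes) of each of the 10 genes in each sample, with replicate numbers beside the points and the mean ± SD of the group as a bar. For the limma test over all genes 4 genes were too low. For Ccl3, Ccl4, Cxcl2, Tnf, Ccl9 and Tgfb1 all NA MP samples lie above all WT MP samples, in Cxcl2 by a gap within counting error.

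Of the 10 genes, 6 passed the filter and were tested, and 5 of these 6 were past the threshold of an adjusted p of 0.05, all 5 higher in NA MPs and 0 lower. Among all 11987 genes tested, 34.3% were past it, 16.9% higher and 17.3% lower in NA MPs. All NA MP samples lay above all WT MP samples in 5 of the 6 tested members, and in 13.5% of all genes tested. The median log2 fold change of the 6 was 1.03, against -0.01 over all genes tested. Since the members were picked with results of these data known, and Ccl4 passed the filter through the NA MP samples, these counts describe the genes and do not test them as a group.

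**Figure D2:**
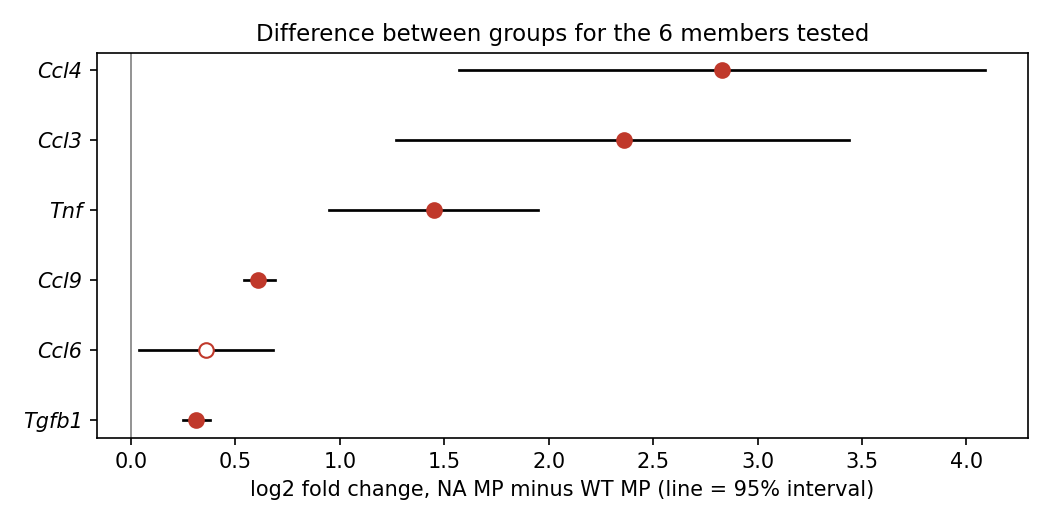
Log2 fold change of the 6 members tested, NA MPs minus WT MPs, with the 95% interval from limma as a line; filled points are past the threshold and the open point, Ccl6, is not. The intervals of Ccl9 (0.54 to 0.69) and Tgfb1 (0.25 to 0.38) are far narrower than those of Ccl3 (1.27 to 3.44) and Ccl4 (1.57 to 4.09).

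The levels of the genes were set side by side after division by exon length, the merged exons of all annotated transcripts of a gene. This length, 5.04 kb for Tgfb1 and 3.04 kb for Ccl9, can exceed that of the message expressed. The order between genes is therefore approximate and depends on it. Per kilobase of exon, the mean value over all 9 samples was 454 for Tgfb1, 412 for Ccl9, 88.9 for Ccl3, 62.6 for Ccl4, 27.5 for Tnf and 20.6 for Ccl6. Cxcl2 followed with 5.81, then Il1b with 2.33, Il6 with 1.32 and Il4 with 1.08. In NA MPs alone Tgfb1 (509.6 per kilobase) and Ccl9 (509.8 per kilobase) were level within their spread, while in WT MPs Tgfb1 (410.2 per kilobase) was above Ccl9 (334 per kilobase). In NA MPs the pairs Ccl3 and Ccl4, Cxcl2 and Il1b, and Il6 and Il4 differed by less than the larger SD of the pair. In WT MPs the same held for neighbours from Ccl3 over Ccl6 and Ccl4 to Tnf, and from Il1b over Cxcl2 and Il6 to Il4.

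The spread within a group was set beside the error of counting. For Ccl3 the coefficient of variation was 41.0% in NA MPs and 41.7% in WT MPs, where the counting of reads alone gives 9.04% and 20.2%. For Ccl4 it was 51.8% and 60.0%, with 11.1% and 30.7% from counting. Tnf varied by 37.4% and 31.0%, also beyond its counting error of 11.8% and 19.8%. Ccl9 varied by 4.35% and 4.25%, against 2.57% and 3.09% from counting, and Tgfb1 by 4.11% and 3.07%, against 1.99% and 2.17%. Ccl6, at 6.68% and 16%, stayed under its counting error of 15.6% and 17.3%. The spread was compared after the values were seen.

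In Ccl3, Ccl4, Cxcl2 and Tnf, NA MP replicates 3 and 4 were both above replicates 1 and 2. The same held near the limit of detection in Il1b (7.79 and 6.61 against 3.60 and 4.04). It also held in Il6 (5.57 and 3.31 against 1.20 and 1.01). In both genes these gaps were within counting error, and the NA and WT MP samples overlapped. Replicate 3 was the higher of its pair for Ccl3 and Cxcl2, and replicate 4 for Ccl4 and Tnf, though no gap was clearly beyond counting error. The lowest NA MP sample was replicate 2 for Ccl3 and Ccl4, and for Cxcl2 and Tnf replicates 1 and 2 could not be told apart within counting error. Among WT MPs, replicate 4 was highest for Ccl3, Ccl4 and Tnf, and replicate 5 for Cxcl2 (7.45 against 6.00 in replicate 4). Each lead over the next WT MP sample was within counting error. In Ccl9 and Tgfb1 NA MP replicate 4 was not above replicates 1 and 2. The cause of this spread was not tested.

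**Figure D3:**
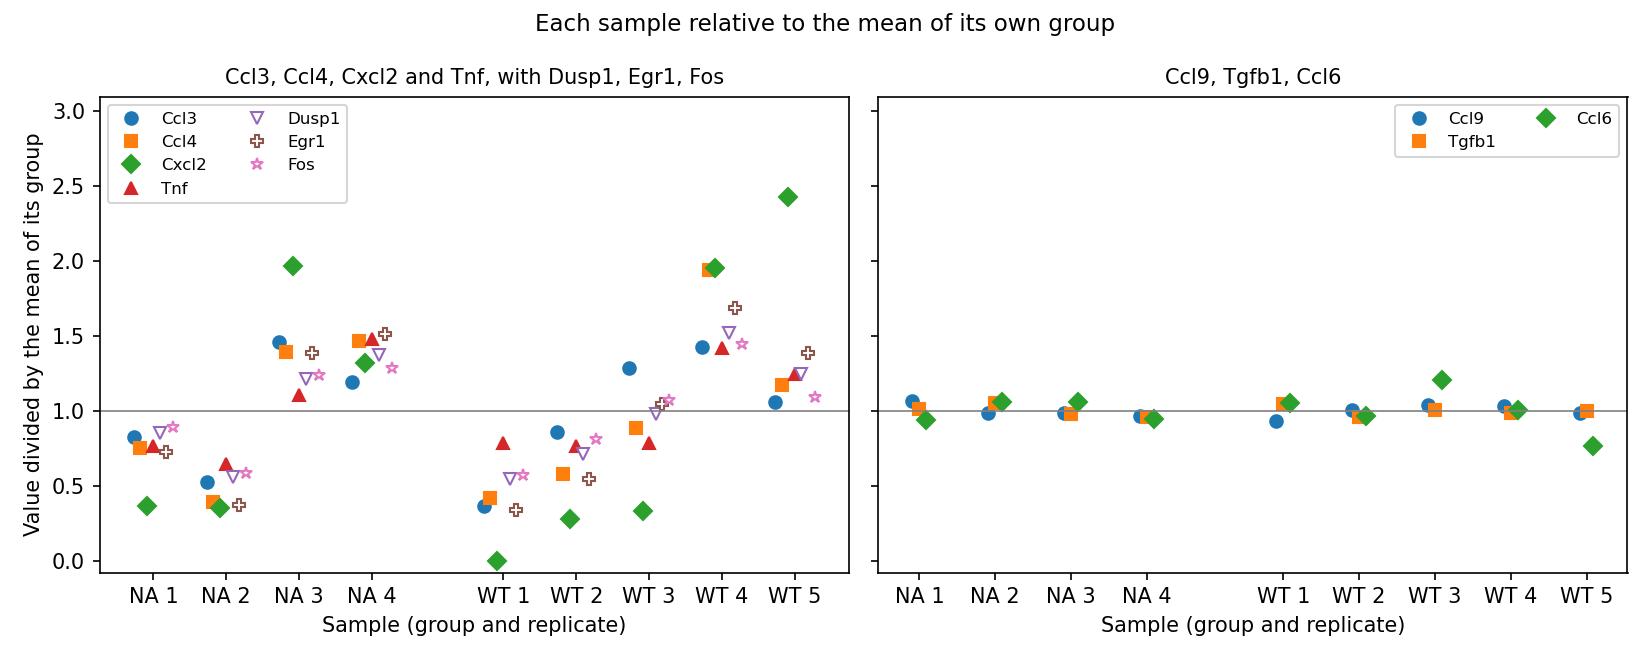
Value of each gene in each sample divided by the mean of its own group (linear axis), for Ccl3, Ccl4, Cxcl2 and Tnf with the 3 genes nearest to Ccl4 in profile (open symbols, left) and for Ccl9, Tgfb1 and Ccl6 (right). NA MP replicate 2 and WT MP replicate 1 lie below the mean of their group for all 7 genes on the left, and the genes on the right stay between 0.768 and 1.21.

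Over all genes tested, those closest to Ccl4 were sought by the root mean square difference between profiles of log2 values over the 9 samples, each centred on its mean. The 5 nearest were Dusp1 (0.22), Egr1 (0.23), Fos (0.28), Zfp36 (0.33) and Pmaip1 (0.37), where the median gene was at 1.52. For Tgfb1 the nearest were Tapbp (0.03), Pecam1, Wbp1, Palm and Stat3 (0.04 each), with a median of 0.21 over all genes. Among the genes nearest to Ccl9 were Adgrg1 (0.05), Ptprcap (0.06) and Sox4 (0.06), with a median of 0.34. The lists of the 5 nearest genes of these 3 members shared 0 genes.

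Of the 5 genes nearest Ccl4, Dusp1, Egr1 and Fos belong to the immediate early genes, which cells switch on within minutes of a stimulus with no need for new protein. Fos, a subunit of the AP-1 factor, had values of 4103, 2691, 5696 and 5900.0 in NA MPs and of 353, 502, 661, 894 and 676 in WT MPs. The high and low samples were those of Ccl4, as its choice by profile implies. Its log2 fold change was 2.90 (SE 0.34, limma adjusted p = 0.000372). Fosb had a log2 fold change of 4.21, Klf2 of 3.24, Dusp1 of 2.91 and Jun of 2.05, all past the threshold.

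Of the 24 immediate early genes listed, 20 were tested, 18 were higher in NA MPs and 0 were lower. Of the 18, Hspa1b and Socs3 passed the filter through the NA MP samples, and with at least 10 in every sample 18 genes were tested and 16 were past the threshold. The list's median log2 fold change was 1.84, against -0.01 over all genes tested. NA MP replicate 4 was the highest NA MP sample in 14 of the 20 genes and replicate 2 the lowest in 17 of the 20. Over all genes tested these shares were 23.1% and 25.8%. Among WT MPs, replicate 4 was highest in 12 of the 20 and replicate 1 lowest in 13, against 19.4% and 23.8% of all genes tested. The summed value of the list was 18880.5, 13069.8, 26668 and 28482 in NA MPs and 3195, 3972, 4755, 6298 and 5029 in WT MPs. Any part of the state these genes report in the values of Ccl3, Ccl4, Cxcl2 and Tnf was not tested.

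The sequences in front of the start sites were searched for listed motifs. A promoter entry was found in RefSeq (GRCm38.p6) for 9 of the 10 members, and Ccl4 has none. Shown here are the last 150 bases before the start, 5′ to 3′, for a pair of genes with wide spread and high counts (Ccl3 and Tnf), for Cxcl2, and for Ccl9, whose coefficients of variation were under 5%. Capitals mark any match, within the 250 bases before the start, to the TATA box (TATAAA, on the strand of the gene), to the AP-1 site (TGANTCA), to the cAMP response element (TGACGTCA) or to the NF-kB site, the last 3 on either strand. The windows are chr11:83649379-83649528 (minus strand) for Ccl3, chr17:35202008-35202157 (minus strand) for Tnf, chr5:90903749-90903898 (plus strand) for Cxcl2 and chr11:83578637-83578786 (minus strand) for Ccl9.
Ccl3: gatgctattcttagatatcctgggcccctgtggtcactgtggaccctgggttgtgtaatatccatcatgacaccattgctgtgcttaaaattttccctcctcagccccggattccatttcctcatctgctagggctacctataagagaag
Tnf: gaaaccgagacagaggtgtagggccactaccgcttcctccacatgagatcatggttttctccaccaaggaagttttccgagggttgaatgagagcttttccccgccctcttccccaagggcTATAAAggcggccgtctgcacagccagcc
Cxcl2: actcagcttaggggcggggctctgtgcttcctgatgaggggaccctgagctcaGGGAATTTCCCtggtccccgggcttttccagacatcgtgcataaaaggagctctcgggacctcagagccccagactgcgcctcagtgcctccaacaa
Ccl9: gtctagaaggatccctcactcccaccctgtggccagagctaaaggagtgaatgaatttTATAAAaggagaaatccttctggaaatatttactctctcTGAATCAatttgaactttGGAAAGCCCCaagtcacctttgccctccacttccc

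Tnf had a TATA box that begins 29 bases before its start, and Il1b had one at 31 bases. In Ccl9 a TATA box lay 92 bases before the start. Of the 32851 promoters in the table, 7.59% held these letters in the same window, and 1.99% held them from 40 to 16 bases before the start. The NF-kB site matched in 3 members, at 97 bases before the start in Cxcl2, at 44 bases in Il6 and at 35 bases in Ccl9, and in 3.90% of all promoters. In Cxcl2 the same letters match on both strands, 1 base apart. Distances are from the RefSeq start, which in Cxcl2 lies 28 bases inside the gene as GENCODE M21 annotates it and in Ccl3 lies outside it. An AP-1 site was found in Ccl9, at 53 bases, and in Il6, at 249 bases, against 6.75% of all promoters. The cAMP response element was in 0 of the 9 and in 1.55% of all promoters. No listed motif overlapped a different one in these windows, and Ccl3 held none of these letters. A match is a description of letters and was not tested as a binding site.

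The tails of the messages differed between the members. The AU-rich element TATTTAT (written as DNA) is bound by proteins such as Zfp36 to start decay. It was counted in the longest 3′ untranslated region of each gene in GENCODE M21 (GRCm38). Windows of 30 bases are shown for Ccl3, Ccl4, Cxcl2 and Tnf, with the element in capitals. They are chr11:83648003-83648032 (minus strand) for Ccl3, chr11:83664541-83664570 (plus strand) for Ccl4, chr5:90905325-90905354 (plus strand) for Cxcl2 and chr17:35199677-35199706 (minus strand) for Tnf.
Ccl3: tgtatttgtgacTATTTATtctgaaagact
Ccl4: tattatttctatTATTTATgttttagttat
Cxcl2: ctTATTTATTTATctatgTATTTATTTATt
Tnf: TATTTATTATTTATTTATTATTTATTTATt

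Overlapping matches counted, Tnf held 8 and Cxcl2 held 7. Il1b held 3, Il4 held 2, and Ccl3, Ccl4 and Il6 held 1 each. Ccl6, Ccl9 and Tgfb1 held 0. So 7 of the 10 members had the element at least once and 3 had it at least 3 times. These counts include Cxcl2, Il1b, Il6 and Il4, which did not pass the filter and are not in the background that follows. Of the members that passed it, Ccl3, Ccl4 and Tnf had the element, and only Tnf at least 3 times. Among the 11038 tested genes with such a region, 30.1% had it at least once and 3.96% at least 3 times. No effect of the element was tested.

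Genes for proteins that act on such tails were measured as well. Zfp36, which encodes a protein that destroys the RNA of Tnf and other cytokines, had values of 2049, 1490.3, 2869 and 3019 in NA MPs and of 272, 385, 469.7, 686 and 499 in WT MPs. The groups were far apart. The order of the samples was that of Ccl4, as the place of Zfp36 among the profiles nearest to Ccl4 implies. The log2 fold change was 2.36 (SE 0.32, limma adjusted p = 0.000856). Its relatives Zfp36l1 (0.85) and Zfp36l2 (0.40) and the nuclease gene Zc3h12a (0.49) were also higher in NA MPs by their log2 fold change. Of 12 genes listed for the decay of AU-rich transcripts, 12 were tested, 5 were higher, 1 was lower (Khsrp, -0.12), and the median log2 fold change was 0.03. Zfp36 and its relatives share exon bases with antisense or noncoding genes, between 105 and 1672 bases in length, so some of their reads may belong to those. Exons of some other genes named here overlap another gene too, in Sox4 by 2616 bases with Gm26735, and whether the counting used strand is not stated.

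Among the receptors of the chemokines, Ccr1, the receptor of Ccl3, Ccl6 and Ccl9, had values of 67.2, 58.6, 60.1 and 49.6 in NA MPs and of 23.7, 18.8, 12.2, 12 and 16.8 in WT MPs. Even the lowest NA MP sample was above all WT MP samples, with a log2 fold change of 1.79 (SE 0.19, limma adjusted p = 2.56e-10). Cxcr2, the receptor of Cxcl2, had a log2 fold change of -0.18 (from -0.25 to -0.10 with 1 sample left out, limma adjusted p = 0.271) and was not past the threshold.

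Ccr3 (log2 fold change 2.37), a receptor of eosinophils and basophils, and Ccrl2 (0.98) were higher in NA MPs. Ccr3 passed the filter through the NA MP samples, as all WT MP samples were under 10. Ccr2 was lower, with values of 387, 444, 416 and 406 in NA MPs and of 616, 584, 662, 604 and 650.4 in WT MPs. The groups did not overlap, and the log2 fold change was -0.59 (SE 0.05, limma adjusted p = 2.92e-13). Cx3cr1 was lower too (log2 fold change -0.23, limma adjusted p = 0.0244, from 0.0161 to 0.069 over its alternatives), and not past the threshold without NA MP replicate 1 (0.0569) or 2 (0.0525) or WT MP replicate 3 (0.069). Cxcr4, the most abundant receptor of the list and the one that holds progenitors in the marrow, did not pass the threshold (log2 fold change -0.05, limma adjusted p = 0.725). Of 24 chemokine receptors listed, 7 were tested, 3 were higher and 2 lower, at a median log2 change of -0.05.

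Of the 33 other chemokine ligands listed, 32 had an entry, 12 of them at 0 in every sample, and 4 were tested. Cxcl10, a chemokine that interferons induce, was the 1 past the threshold, with values of 10.8, 7.08, 25.6 and 19.0 in NA MPs and of 3.24, 0.856, 8.15, 4.0 and 11.2 in WT MPs. The groups overlapped, and its log2 fold change of 1.49 (limma adjusted p = 0.0159) was no longer past the threshold without NA MP replicate 3 (adjusted p = 0.0545), WT MP replicate 1 (adjusted p = 0.0699) or WT MP replicate 4 (adjusted p = 0.0543). Over all alternatives run its adjusted p lay between 0.000146 and 0.0699, and its exons share 133 bases with Art3. The count for this list ran from 0 to 2 when each sample was left out in turn. Pf4 (-0.20), Ccl27a (-0.10) and Ccl25 (-0.63, from -0.87 to -0.30 with 1 sample left out, limma adjusted p = 0.0699) were not past the threshold. Ccl25 passed the filter through the WT MP samples and was past the threshold without NA MP replicate 2 (0.0177) or 4 (0.0251), in a range from 0.0177 to 0.408 over its alternatives. Pf4 was past it without NA MP replicate 1 (adjusted p = 0.0336) or WT MP replicate 5 (adjusted p = 0.0339), in a range from 0.0311 to 0.211 over its alternatives, and the median log2 fold change of the 4 was -0.15.

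Of 50 other cytokine ligands listed, 13 were tested, 5 were higher and 2 lower in NA MPs, at a median log2 change of 0.23, and 11 were at 0 in every sample. Osm, which encodes oncostatin M, had values of 132, 93.0, 232 and 231 in NA MPs and of 46.4, 56.5, 59.1, 84.1 and 74.5 in WT MPs. Replicates 3 and 4 were again the high NA MP samples and the groups did not overlap, with a log2 fold change of 1.34 (SE 0.32, limma adjusted p = 0.0156). Il12a (0.42) and Grn (0.38) were higher by smaller log2 fold changes.

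Tnfsf13, whose product acts on B and plasma cells, was lower, with a log2 fold change of -1.06 (SE 0.07, limma adjusted p = 1.93e-15), and so was Tnfsf8 (-1.17), which passed the filter through the WT MP samples. Tnfsf13 shares 983 bases of exon with Tnfsfm13 on the same strand, so the 2 genes' reads cannot be fully separated. Mif, after Grn the ligand of this list with the highest value (not divided by length), was not past the threshold (log2 fold change 0.05, limma adjusted p = 0.289).

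Of 14 genes listed for receptors of the member cytokines, 12 were tested, 2 were higher and 5 lower, at a median log2 change of -0.01. Tgfbr2, the receptor subunit that binds transforming growth factor beta 1, had values of 376, 341, 312 and 297 in NA MPs and of 212, 216, 261, 235 and 233 in WT MPs. The groups did not overlap, with a log2 fold change of 0.51 (SE 0.07, limma adjusted p = 8.92e-08). Tgfbr3, a coreceptor for the same ligand, went the other way, with values of 91.2, 66.7, 82.4 and 79.3 in NA MPs and of 177, 169, 187, 186 and 197 in WT MPs. All NA MP samples were below all WT MP samples, and the log2 fold change was -1.19 (SE 0.09, limma adjusted p = 2.27e-14).

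Il6st, the signalling chain of the interleukin-6 receptor, had a log2 fold change of -0.42 (limma adjusted p = 3.15e-08) and Eng, another coreceptor of the transforming growth factor family, of -0.37 (limma adjusted p = 1.25e-07). Il6ra (-0.18) was lower too, and Il2rg, a shared chain of the interleukin-4 receptor, was higher (0.37), though it shares 728 bases of exon with Gm20489 on the same strand. Il1r1 (-0.37, limma adjusted p = 0.0302, from 0.00651 to 0.121 over its alternatives) was not past the threshold without NA MP replicate 1 (0.0659) or 3 (0.0536) or WT MP replicate 4 (0.121) or 5 (0.0535). The tumour necrosis factor receptors Tnfrsf1a (0.02, limma adjusted p = 0.786) and Tnfrsf1b (-0.04, limma adjusted p = 0.513) were the most abundant of the list and were not past the threshold.

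The genes that process or release these cytokines were next. Of 20 listed, 16 were tested, 8 were higher and 2 lower, at a median log2 change of 0.15. Among those for latent transforming growth factor beta, the binding protein genes Ltbp4 (log2 fold change 1.37) and Ltbp1 (-1.68) differed in opposite directions, both at values under 30. Ltbp4 passed the filter through the NA MP samples, with 0 WT MP samples at 10, and Ltbp1 through the WT MP samples, with 1 NA MP sample at 10. Thbs1, which encodes an activator of the latent form, fell to values of 0, 7.08, 5.57 and 4.13 in NA MPs from 18.3, 12.8, 14.3, 8.0 and 13.0 in WT MPs. The groups did not overlap (log2 fold change -1.77, SE 0.46, limma adjusted p = 0.00403). Thbs1 passed the filter through 4 WT MP samples and had values in 16 of 21 alternatives, with an adjusted p from 0.000659 to 0.0355. Leaving out a sample gave log2 fold changes from -2.10 to -1.10, the last without NA MP replicate 1. Nrros, which tethers the latent form on myeloid cells and was the most abundant of the list, was higher by 0.15 (limma adjusted p = 0.000459). Casp4, of the inflammasome, had a log2 fold change of 0.51, while Adam17, the protease that frees tumour necrosis factor, was not past the threshold (-0.03, limma adjusted p = 0.635).

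In the NF-kB pathway, Tnfaip3, Nfkbiz, Relb and Nfkbia had the largest log2 fold changes among the genes past the threshold. Tnfaip3, which ends NF-kB signalling, had values of 295, 256, 753 and 641 in NA MPs and of 118, 104, 131, 152 and 167 in WT MPs. NA MP replicates 3 and 4 stood far above replicates 1 and 2, and the groups did not overlap. Its log2 fold change was 1.71 (SE 0.36, limma adjusted p = 0.00857). Nfkbia, the main inhibitor of NF-kB, had values of 325, 304, 526 and 495 in NA MPs and of 196, 214, 219, 259 and 267 in WT MPs. It too was high in replicates 3 and 4, with a log2 fold change of 0.80 (limma adjusted p = 0.0176).

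Relb rose by a log2 fold change of 1.07 and Nfkbiz by 1.33, the latter with an adjusted p of 0.0337 from limma that lay between 0.00011 and 0.0753 over all alternatives run. Nfkbiz was past the threshold in 14 of its 21 alternatives, and was not past it without NA MP replicate 3 (0.0753) or 4 (0.0702) or without WT MP replicate 1 (0.0669), 2 (0.0747) or 3 (0.0744). Of 30 genes listed for TNF, IL-1 and NF-kB signalling, 30 were tested and 36.7% were past the threshold, near the 34.3% of all genes tested. Of these 30, 10 were higher and 1 lower (Map3k7, -0.24), at a median log2 change of 0.09. The most abundant of them, Irak1 and Nfkb1, were higher by 0.10 and 0.12, and Irak1 was no longer past the threshold without WT MP replicate 2 (adjusted p = 0.0953, with a range from 0.0119 to 0.0953 over its alternatives).

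In the Smad pathway, Smad7, whose product blocks the receptor, had values of 136, 111, 143 and 155 in NA MPs and of 96.0, 79.6, 93.7, 99.1 and 82.0 in WT MPs. All NA MP samples were above all WT MP samples (log2 fold change 0.59, SE 0.10, limma adjusted p = 9.89e-06). Bambi, a decoy receptor gene, had a log2 fold change of 0.96 (SE 0.10, limma adjusted p = 5.04e-10), and Tgif1 of 0.27. Smad6 (0.70, limma adjusted p = 0.0331) passed the filter through the NA MP samples and kept its side of the threshold in only 11 of 20 alternatives, with an adjusted p from 0.0135 to 0.112. It was not past the threshold without NA MP replicate 2 (0.0546), 3 (0.112) or 4 (0.0737), or without WT MP replicate 1 (0.0592), 3 (0.0874) or 5 (0.086).

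Tgif2 was lower (-0.70, limma adjusted p = 8.25e-06). The abundant Smad3 and Ski, each with a log2 fold change of 0.01, were not past the threshold. Of 14 genes listed for TGF-beta and Smad signalling, 12 were tested, 4 were higher and 1 lower, at a median log2 change of 0.01. The share past the threshold was 41.7%, against 34.3% of all genes tested.

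**Figure D4:**
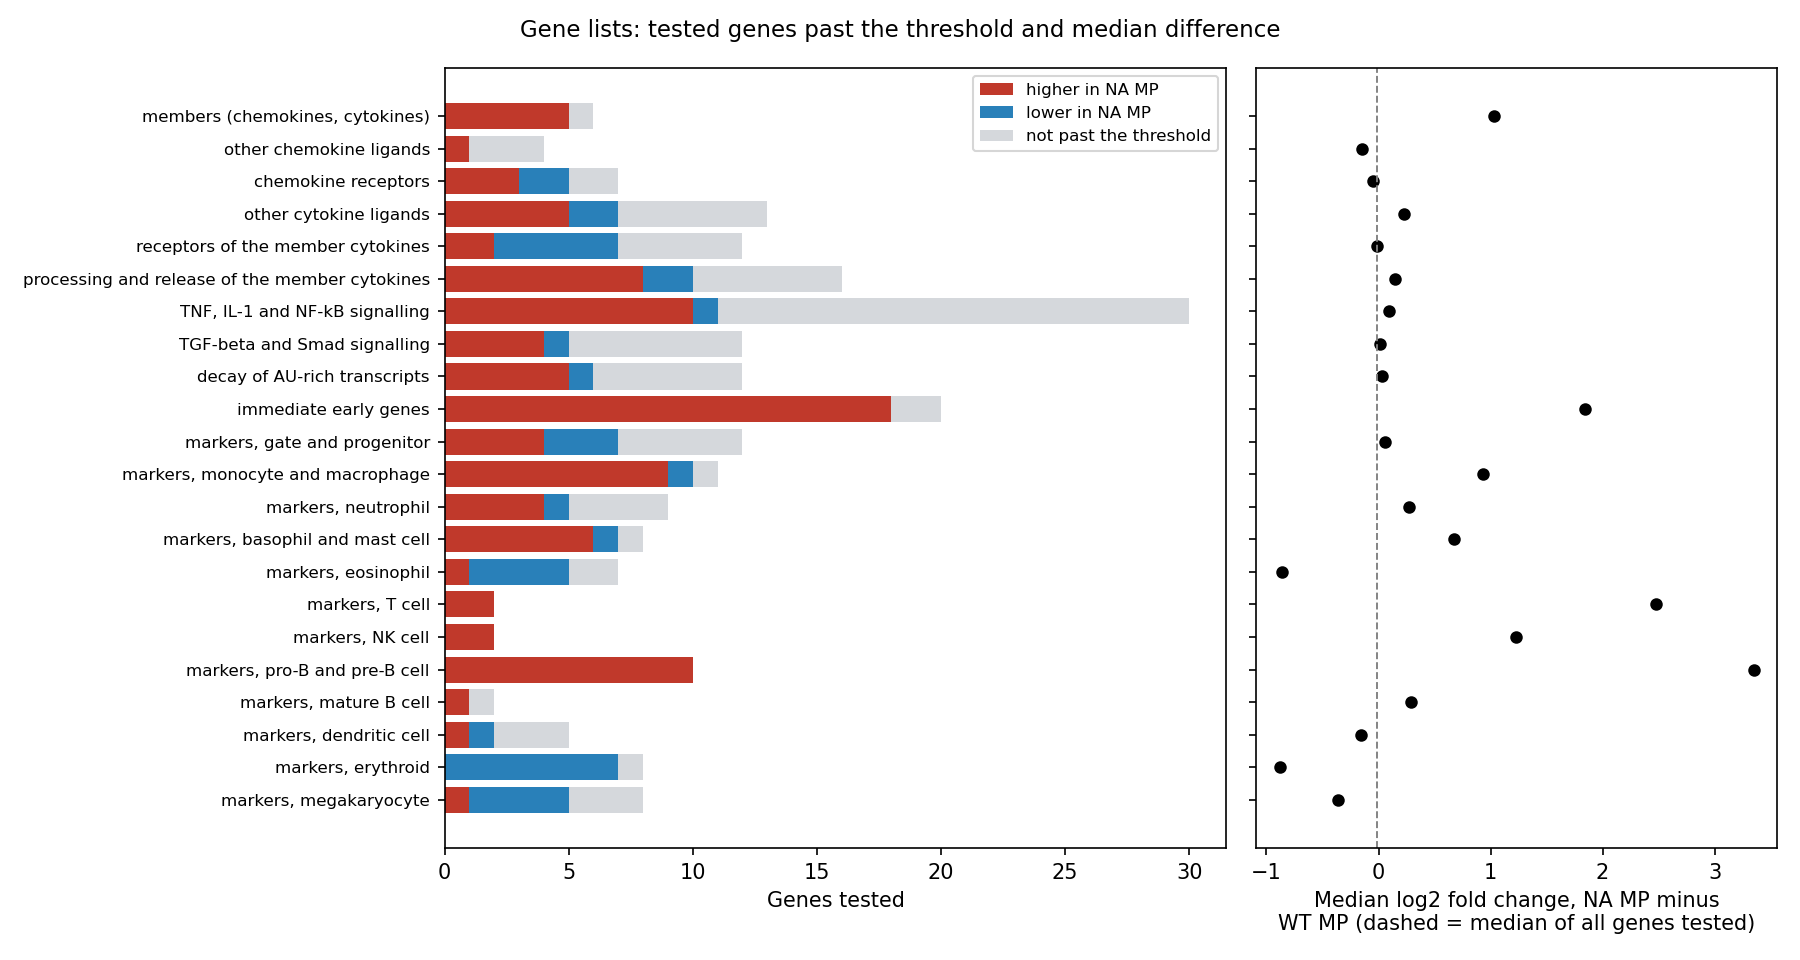
Number of genes tested in each list, split by whether they were higher, lower or not past the threshold in NA MPs (left), and the median log2 fold change of the tested genes (right), with the median of all 11987 genes tested dashed. Immediate early genes have 18 of 20 higher and a median of 1.84, while most pathway lists have medians within 0.25 of 0.

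Markers of cells that make these cytokines were measured in the same samples, although the sort left out cells with lineage markers. Of 15 monocyte and macrophage markers, 11 were tested, 9 were higher and 1 was lower, at a median log2 change of 0.93. Their summed value was 9033, 9579, 10069 and 9472 in NA MPs and 7627, 7792, 7579, 8171 and 7341 in WT MPs. Most of it was Ly6c2 (log2 fold change 0.23), and Marco, of tissue macrophages, had a mean value under 1. The macrophage markers C1qc (2.50), C1qa (2.34), Mrc1 (2.16), C1qb (1.95) and Cd68 (0.98) were past the threshold by these log2 fold changes, with all NA MP samples above all WT MP samples, and C1qc passed the filter through the NA MP samples. Vcam1 was lower (-0.25, limma adjusted p = 0.00321, and -0.16 without NA MP replicate 2), with all NA MP samples below all WT MP samples. Csf1r (0.07, limma adjusted p = 0.188) was not past the threshold, except without NA MP replicate 1 (0.0312), in a range from 0.0312 to 0.478 over its alternatives. Of 12 basophil and mast cell markers, 8 were tested, 6 were higher and 1 was lower, with a median of 0.67. The sum was 5819, 5308, 5167 and 5019.7 in NA MPs and 4012, 4014, 3989.8, 3945 and 3799.9 in WT MPs, with Gata2 (0.43), which progenitors also express, the most abundant over all samples, Hdc the highest in WT MPs, and Tpsab1 at 0. The markers Cma1 (1.88, which passed the filter through the NA MP samples), Fcer1a (1.38), Ms4a2 (1.37) and Cpa3 (0.92) were past the threshold, again with no overlap of the groups. Hdc was lower (-0.24, limma adjusted p = 4.29e-07), with all NA MP samples below all WT MP samples. Prss34 (-0.50, from -0.66 to -0.28 with 1 sample left out, limma adjusted p = 0.157) was not past the threshold, except without the robust option, in a range from 0.009 to 0.259 over its alternatives. Except for Ly6c2, Marco, Gata2 and Tpsab1, these markers were named after their values were seen.

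Gene by gene, NA MP replicate 1 was the highest NA MP sample in 5 of the 11 monocyte markers tested, replicate 3 in 4, replicate 2 in 2 and replicate 4 in 0. The lowest was replicate 2 in 6, replicate 1 in 3, replicate 4 in 2 and replicate 3 in 0, and WT MP replicate 4 was the highest WT MP sample in 6. Of the 8 basophil and mast cell markers tested, NA MP replicate 1 was highest in 5 and replicate 2 in 3, and replicate 3 was lowest in 3. Of 12 neutrophil markers, 9 were tested, 4 were higher and 1 lower, with a median of 0.27. Their sum was 5061, 5839, 7142 and 7094 in NA MPs and 4569, 4974, 4970.0, 4982 and 5153 in WT MPs, with S100a8 the most abundant over all samples and Csf3r (-0.05, limma adjusted p = 0.263) the highest in WT MPs. S100a8 was not past the threshold (log2 fold change 0.27, from 0.18 to 0.39 with 1 sample left out, limma adjusted p = 0.125), except without NA MP replicate 1 (8.83e-09) or the robust option, in a range from 8.83e-09 to 0.281 over its alternatives, and without NA MP replicate 4 the list had 3 genes past it instead of 5. Among the 9 tested, NA MP replicate 3 was highest in 6 and replicate 4 in 3, and replicate 1 was lowest in 6 and replicate 2 in 3.

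Of 11 pro-B and pre-B cell markers, 10 were tested and 10 were higher, at a median log2 change of 3.35. Pax5, Vpreb3 and Ebf1 passed the filter through the NA MP samples, and with at least 10 in every sample 5 markers were tested and 5 were past the threshold. Their sum was 1046, 1989, 1972 and 1429.9 in NA MPs and 270.2, 289, 285, 281 and 285 in WT MPs, with Cd79b (0.75) the most abundant over all samples and Rag1 (3.66) the highest in NA MPs. Of 10 T cell markers, 2 were tested and both were higher, Thy1 (2.80) and Lck (2.16), for a median of 2.48. Thy1 was the most abundant over all samples and Lck the highest in WT MPs, while Cd3e and Cd3g, which define T cells, were at 0 in all 9 samples, and Cd3d, Cd8a, Cd8b1 and Cd2 had means under 1 in each group. Thy1 passed the filter through the NA MP samples, and with at least 10 in every sample 0 of the T cell markers were tested. The T cell sum was 131, 129, 147 and 145 in NA MPs and 25.9, 22.2, 22.4, 35.0 and 29.8 in WT MPs.

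NK cell markers had 2 of 8 tested, both higher, with a median of 1.23 and a sum of 2388, 2198, 2325 and 2179 in NA MPs and of 1728, 1859, 1871, 1840.1 and 1769 in WT MPs. Nkg7 (0.16), which progenitors also express, made up most of that sum. Gzmb, named after its values were seen, had values of 382, 271, 274 and 274 in NA MPs and of 63.7, 59.0, 55.0, 58.0 and 63.4 in WT MPs, with a log2 fold change of 2.29 (SE 0.10, limma adjusted p = 2.69e-23), while Gzma and Eomes were at 0 in all WT MP samples and under 5 in all NA MP samples. Mature B cell markers had 2 of 8 tested, 1 higher (Cd22) and 0 lower, with a median of 0.29 and Cd74 the most abundant. Cd22 decided this count, which was 0 without any 1 of NA MP replicates 2 to 4 or WT MP replicates 2 to 5. The mature B cell sum was 324, 475, 595 and 572 in NA MPs and 474, 495, 517, 570.3 and 474 in WT MPs. Dendritic cell markers had 5 of 9 tested, 1 higher (Bst2) and 1 lower (H2-Aa), with a median of -0.16 and H2-Ab1 the most abundant over all samples and Bst2 the highest in NA MPs. Without NA MP replicate 2 or 3 or WT MP replicate 5, 1 gene was past the threshold. The dendritic cell sum was 796, 981, 1029 and 974 in NA MPs and 915, 940.3, 1011, 1055 and 952 in WT MPs.

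Erythroid markers had 8 of 10 tested, 0 higher, 7 lower and a median of -0.88. Their sum was 4939, 3970.4, 4245 and 5012 in NA MPs and 8796, 8721, 7879, 7724 and 8068 in WT MPs, with Car1 (-0.72) the most abundant. Eosinophil markers had 7 of 8 tested, 1 higher, 4 lower and a median of -0.86. Their sum was 926, 1571, 1294 and 1116 in NA MPs and 1979, 1817, 1862, 1769 and 1588 in WT MPs, with Prg2 (-1.07) the most abundant. Prg2 (limma adjusted p = 0.00915) was not past the threshold with the replicate number as a block (limma adjusted p = 0.0642). Without NA MP replicate 3, 3 of the genes were past the threshold. With at least 10 in every sample 5 eosinophil markers were tested and 3 were past it. Of the markers tested, 2 eosinophil, 2 megakaryocyte, 1 erythroid, 1 dendritic cell and 1 neutrophil marker passed the filter through the WT MP samples.

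Megakaryocyte markers had 8 of 9 tested, 1 higher (Itga2b, also the most abundant), 4 lower and a median of -0.36. Their sum was 1751, 1609, 1500.1 and 1505 in NA MPs and 1697, 1703, 1627, 1577 and 1517 in WT MPs. The 12 gate and progenitor markers were all tested, with 4 higher, 3 lower and a median of 0.06. Their sum was 162729, 178411, 175048 and 168324 in NA MPs and 165230.1, 162379, 165359, 162908 and 158801 in WT MPs. The part of a different mixture of progenitors, or of cells carrying these markers, in the values of the 10 chemokine and cytokine genes was not tested.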

How the data were processed

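RNA of 4 NA MP and 5 WT MP samples was measured by polyA sequencing. The authors used bcl2fastq, RSEM, DESeq2 and mm10, with no versions named. The deposited values are signal: RSEM expected counts divided by a factor for each sample, since 97.6% to 98.0% of low values (0.5 to 200 reads) were whole multiples of 1 step within 0.05. A counting model, edgeR, was planned but not run on these scaled values, and DESeq2 was not run either. Genes with a value of at least 10 in at least 4 samples were kept, 1 was added, and log2 values were compared in limma 3.58.1 (R 4.3.3; trend and robust options, Benjamini-Hochberg adjustment over 11987 genes, threshold 0.05), after a check on simulated data. Single low genes were compared by exact permutation in Python 3.11.15 (scipy 1.17.1). Symbols matched 32916 of 37980 identifiers, and positions came from GENCODE M21.

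The members and the 21 lists were chosen with earlier results of these data known. Named were the members, up to 4 changed genes and the 2 most abundant per pathway list, the most abundant marker and markers at 0, and nearest profiles, of which a few are left out. Kit, Ly6a, Cxcr2, Lck, Ccl25, Hspa1b, Socs3, several cell type markers and genes named where a count was small were added after their values were seen. Alternatives covered scaling, filter, pseudocount, rounding, options, threshold, the replicate block and leaving out each sample.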

Additional observations from a re-analysis of the deposited data

Results flagged for a closer look

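In 12 of 274 groups of samples that were checked, the highest or lowest sample lay further from its nearest neighbour than Dixon's 95% limit allows. Chance flags about 1 in 20 groups, or 13.7 of 274. The 12 samples are given as values. WT MP replicate 4 was high for Il6st, at 473.28 where the other WT MP samples were between 427.34 and 435.50. NA MP replicate 3 was high for Ltbp4, at 27.8 against 16.5 to 17.2, and WT MP replicate 1 for the same gene, at 9.71 against 5.99 to 6.52. NA MP replicate 1 was high for Gata2, at 1840.3 against 1469.7 to 1531, for C1qc, at 126.05 against 58.6 to 70.1, and for Gzmb, at 381.74 against 270.96 to 274.42. NA MP replicate 2 was low for Ly6a, at 17.2 against 22.3 to 23.1. WT MP replicate 5 was low for Hdc, at 1221 against 1316 to 1351, and WT MP replicate 4 was high for Ebf1, at 16 against 7.94 to 10.2. WT MP replicate 1 was low for Il6ra, at 431.65 against 457.27 to 466.63, and high for Wbp1, at 265.47 against 235.74 to 242.13. The same sample was low for the summed value of the TNF, IL-1 and NF-kB list, at 11332 against 11636 to 11722.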

How the results depend on the processing

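The 6 tested members kept their direction in all 124 values under 21 alternatives, and 123 kept their side of the threshold. The exception was Ccl6 without WT MP replicate 3. The alternative with an adjusted p of 0.01 used the main fit, so for these and all other genes its directions could not differ. The log2 fold change ran from 2.05 to 2.63 for Ccl3, 2.49 to 3.21 for Ccl4, 1.24 to 1.63 for Tnf, 0.58 to 0.63 for Ccl9, 0.29 to 0.33 for Tgfb1 and 0.26 to 0.43 for Ccl6. With at least 10 in every sample, 3 members were past the threshold, because 4 instead of 6 were tested. Leaving out each sample gave 5 to 6. Genes past the threshold numbered from 2857 (adjusted p of 0.01) to 4203 (no filter), and 3686 with the replicate number as a block (5 members), although the numbers do not pair the samples.

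Of 1930 values for 93 other named genes, 35 lost and 13 gained the threshold and 17 changed sign, all in genes with a log2 fold change near 0 and not past the threshold. Leaving out each sample, it ran from -0.20 to 0.04 for Ccl27a, -0.12 to 0.02 for Cxcr4, -0.01 to 0.03 for Tnfrsf1a, -0.01 to 0.03 for Ski, -0.02 to 0.03 for Smad3, -0.01 to 0.02 for Hnrnpd and -0.23 to 0.07 for Cd74. By library size alone it was -0.01 for Ski and -0.01 for Smad3, and with the block -0.00 for Smad3. The cause was not tested. Counts of genes past the threshold per list moved by more than 1.5 times in 39 of 441 values.

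Rounding, pseudocounts of 0.5 and 4, quantile normalization and weights on unscaled counts were chosen after seeing the data. The edgeR fit planned was not run on the scaled values, nor on the unscaled counts that the weights used. No DESeq2 fit was run on either. Depth limits Cxcl2, Il1b, Il6 and Il4, which had 93, 22, 11 and 3 reads in NA MPs and 16, 18, 18 and 9 in WT MPs.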
